A study of Homo sapiens with 4 samples.

Results

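The luminal breast and oestrogen-response genes are 10 listed genes, taken from 20037 protein-coding genes, that mark the luminal epithelial state of the breast or respond to oestrogen. The oestrogen-related receptor ERRα was mapped near them by sequencing of immunoprecipitated chromatin (ChIP-seq) from MDA-MB-231 cells. This established human breast cancer line lacks the oestrogen receptor and has a basal, mesenchymal character. The samples were 2 ERRα ChIP replicates and 2 inputs, which are sonicated chromatin without immunoprecipitation, all from untreated cells grown in medium with serum. No treatment, genetic change or other cell line was part of the design, and no RNA was measured, so the peaks do not tell whether a gene was transcribed or whether the cells were luminal. Each gene was given all peaks whose summit, the base of highest signal, lay inside the gene or within 100 kb of it on GRCh38. By this rule there were 26 peaks of replicate 1, 24 of replicate 2 and 18 peaks matched between the replicates, of 14072, 12659 and 10059 in all. Of the matched peaks, 6 passed an irreproducible discovery rate (IDR) of 0.05 and are called reproducible here, of 5070 in the whole data. A summit shared by the overlapping windows of KRT8 and KRT18 was counted once.

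ERRα is an orphan nuclear receptor that resembles the oestrogen receptor in its DNA-binding domain but does not need oestrogen. It prefers an extended site, TCAAGGTCA, while the oestrogen receptor binds inverted repeats of the core GGTCA, and the receptors can share some sites. In luminal breast cells FOXA1 opens chromatin for the oestrogen receptor and GATA3 works beside it, and TFF1, GREB1 and XBP1 are among the genes that oestrogen switches on. LTF, the gene of the iron-binding milk protein lactoferrin, is a classical gene on which ERRα was studied beside the oestrogen receptor.

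Promoter sequences, taken from RefSeq (GRCh38.p14) and running from 250 bases before to 50 after a start, were found for 7 of the 10 genes, with 15 starts in all. They are GATA3, FOXA1, ELF3, SPDEF, KRT8, XBP1 and LTF. KRT18, TFF1 and GREB1 had no entry. Peaks of either replicate overlapped the promoter of KRT8 (chr12:52926420-52926719, minus strand) and that of one XBP1 start (chr22:28800520-28800819, minus strand), which are shown as the promoters with signal. A replicate 2 peak in GATA3 began at 8045383, directly after a GATA3 promoter that ended at 8045382, and so is not counted. The promoters of ELF3 (chr1:202010337-202010636, plus strand) and SPDEF (chr6:34556280-34556579, minus strand) are shown because their genes had reproducible summits elsewhere and none here. GATA3 met the same rule, but its 6 promoters are not printed. Each is printed 5′ to 3′, and capitals mark every GGTCA on either strand, the core that the sites of both receptors share.
KRT8: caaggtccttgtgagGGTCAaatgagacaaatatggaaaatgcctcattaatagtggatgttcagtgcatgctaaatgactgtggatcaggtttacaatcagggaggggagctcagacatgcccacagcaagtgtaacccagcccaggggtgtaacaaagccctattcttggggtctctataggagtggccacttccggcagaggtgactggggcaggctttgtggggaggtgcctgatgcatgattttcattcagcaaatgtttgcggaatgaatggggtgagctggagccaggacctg
XBP1: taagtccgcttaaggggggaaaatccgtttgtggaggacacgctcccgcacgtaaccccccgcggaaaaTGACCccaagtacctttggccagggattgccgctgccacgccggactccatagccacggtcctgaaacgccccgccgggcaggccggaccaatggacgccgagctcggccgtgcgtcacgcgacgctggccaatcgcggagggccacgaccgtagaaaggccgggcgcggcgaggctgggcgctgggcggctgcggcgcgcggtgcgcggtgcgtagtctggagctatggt
ELF3: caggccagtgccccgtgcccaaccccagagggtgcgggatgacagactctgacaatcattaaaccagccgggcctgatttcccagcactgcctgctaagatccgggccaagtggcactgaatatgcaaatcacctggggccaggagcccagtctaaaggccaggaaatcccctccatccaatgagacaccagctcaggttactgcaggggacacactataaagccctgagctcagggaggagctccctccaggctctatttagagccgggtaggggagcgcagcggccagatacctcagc
SPDEF: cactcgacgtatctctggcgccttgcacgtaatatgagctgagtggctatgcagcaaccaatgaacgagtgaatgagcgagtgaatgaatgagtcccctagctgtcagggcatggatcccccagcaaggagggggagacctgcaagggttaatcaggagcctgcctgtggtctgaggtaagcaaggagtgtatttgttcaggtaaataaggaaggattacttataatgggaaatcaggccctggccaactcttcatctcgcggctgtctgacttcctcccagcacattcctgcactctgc

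The full ERRα site TCAAGGTCA and its shorter form AAGGTCA were found, on either strand, in none of the 15 promoters. AGGTCA, which is contained in both, was also in none, against 13.8% of all 35116 promoters in the table. The palindromic oestrogen receptor site, GGTCA and TGACC with any 3 bases between them, was in none, against 0.057% of all. With only 15 promoters, 6 of them of GATA3 and 3 of LTF, finding none of these sites is not told apart from the background. The core GGTCA, contained in all of these, was in 7 of the 15 (46.7%), against 37.4% of all 35116 promoters in the table. The KRT8 promoter holds it 235 bases before the start, and the XBP1 promoter shown holds it on the opposite strand 181 bases before the start. GGTCA was also in promoters that no peak of either replicate overlapped. These belong to the GATA3 starts at 8045333, 8053641 and 8054688, the LTF start at 46463654 and the XBP1 start at 28800077. Across the table AAGGTCA was in 3.92% of promoters. Among the 216 promoters that held a reproducible summit it was in 42.6%, and TCAAGGTCA was in 11.1% against 0.353% of all. These are matches of letters in a 300-base window, not mapped binding sites. The sequence under the summits outside these promoters was not used here.

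Reproducible ERRα summits lay in or within 100 kb of 4 of the 10 genes, GATA3, ELF3, SPDEF and GREB1. The same was true of 46.4% of all protein-coding genes, so this count is near the background. The windows covered 2.14 Mb and held 2.81 reproducible summits per Mb, against 2.2 per Mb in the windows of all protein-coding genes. Enrichment was modest. The fold enrichment of ChIP over input, averaged over the replicates, ran from 8.17 to 17.6 at the 6 summits, with a median of 10.4, against a median of 12.9 and a highest value of 543.7 over all reproducible peaks. Only 2 of the 6 were above that overall median, and both lay inside a neighbouring gene, TIMM17A or LPIN1. For 4 of the 6 a listed gene was the nearest protein-coding gene. With matched peaks of any IDR, 7 of 10 genes had a summit (64.4% of all protein-coding genes), and FOXA1 had none in either replicate's list. In the lists of replicates 1 and 2 alone, 8 of 10 genes each had a summit, against 72.5% and 70% of all protein-coding genes.

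**Figure D1:**
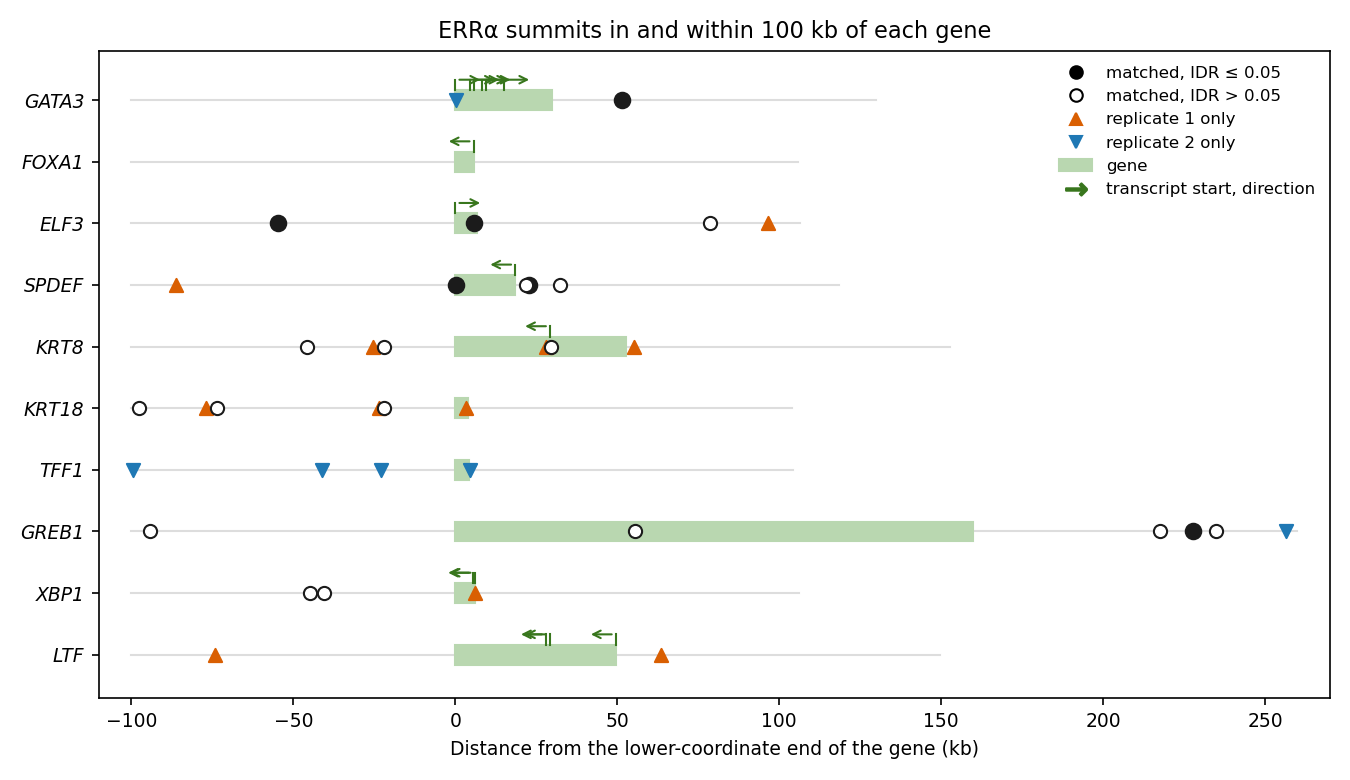
Positions of ERRα summits around the 10 genes. The x axis is the distance in kb from the lower-coordinate end of the gene, green boxes are genes to scale, green arrows are starts and directions given in the promoter table, grey lines span the 100 kb windows, filled circles are matched summits that passed IDR 0.05, open circles are matched summits that did not, and triangles are summits of a single replicate. The 6 filled circles lie at 4 genes, and the FOXA1 row is empty.

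The listed genes with a reproducible summit near an end had it at the end where transcription stops. Within 1 kb of either gene end, a reproducible summit was found for ELF3 and SPDEF, 2 of 10 genes against 4.49% of all. Within 1 kb of a start in the promoter table there was none, 0 of the 7 genes with an entry against 4.51% of the 15826 protein-coding genes with one. With 7 genes, none is near that share. A reproducible summit within 1 kb of the opposite end and of no start was found for 2 of the 7, against 0.638% of the same 15826 genes. Each of these calls ended under one alternative. At an IDR of 0.01 only 1 gene, ELF3, had a summit near an end, and within 500 bp of an end only 1, SPDEF. Among matched peaks of any IDR the count near an end stayed at 2 of 10 (8.85% of all). In replicate 1 alone it was 4 of 10 (12.2% of all), with KRT18 and XBP1 beside ELF3 and SPDEF. In replicate 2 alone it was also 4 of 10 (11% of all), with GATA3 and TFF1 in their place. At starts, replicate 1 had KRT8 and XBP1, 2 of 7 genes (12.7% of all with an entry), and replicate 2 had KRT8 and GATA3 (11.2%). This split by start and opposite end was made after the positions of the ELF3 and SPDEF summits were known and has no test.

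**Figure D2:**
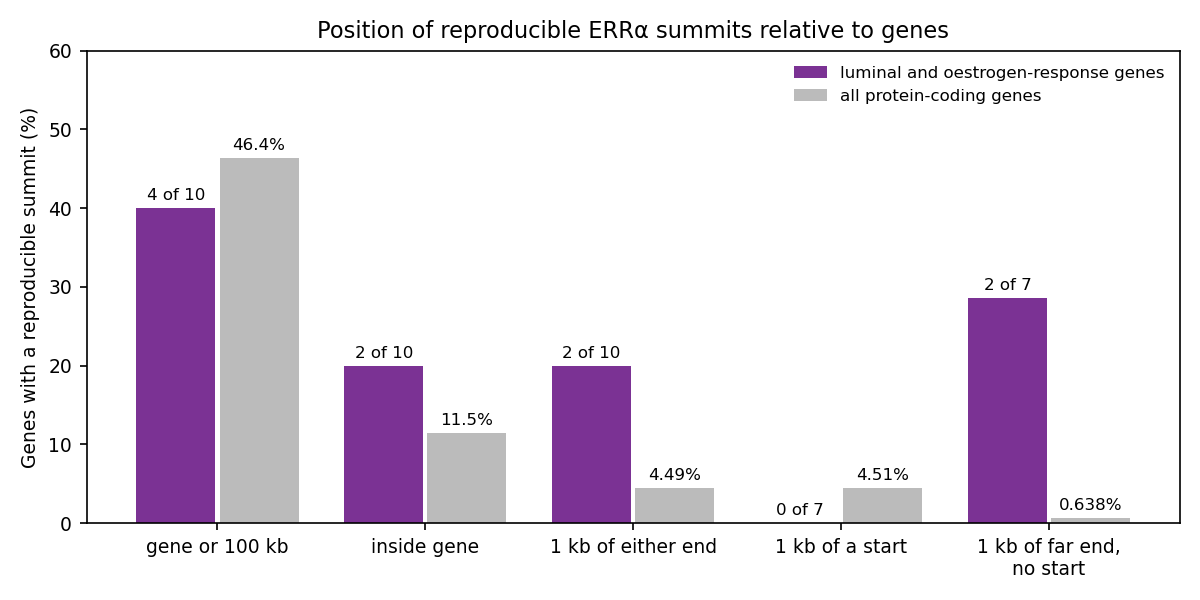
Share of genes with a reproducible ERRα summit, by position. The y axis is the percentage of genes, purple bars are the listed genes with their counts, grey bars are all protein-coding genes (with a start in the promoter table for the 2 groups on the right), and far end means the end opposite to the start. The listed genes are at 0 of 7 for a start and 2 of 7 for the far end. With 7 genes, none at a start is near the 4.51% of all genes with an entry. The split by start and far end was made after the ELF3 and SPDEF positions were known.

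Of the 5 transcription factors, 3 had a reproducible summit in the gene or within 100 kb, where 46.4% of all protein-coding genes had one. ELF3, an epithelial ETS factor (chromosome 1, 202010587 to 202017183), had a summit inside the gene at 202016326, 5.74 kb downstream of its start and 857 bp before its far end. Its fold was 10.7 in replicate 1 and 10.5 in replicate 2 (mean 10.6 ± 0.128, SD, n = 2), and the peak spanned 202015991 to 202016729. The replicates differed there by less than at most other summits of these genes. The strongest reproducible summit of the whole set lay 54.7 kb upstream of ELF3, with folds of 19.4 and 15.7 (mean 17.6 ± 2.61, SD, n = 2), but inside TIMM17A, which encodes a subunit of the mitochondrial import channel. A further matched summit 72.0 kb past ELF3, inside a non-coding gene, had 14.1 in replicate 1 and 8.06 in replicate 2 and did not pass IDR. Its 2 folds are 1.75 times apart, the widest ratio among the matched summits here.

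SPDEF is an ETS factor of luminal and secretory epithelium (chromosome 6, 34537802 to 34556329, minus strand). Its summit at 34538130 lay inside the gene, 328 bp from the far end and 18.2 kb from the start. The folds there were 7.91 and 8.43 (mean 8.17 ± 0.371, SD, n = 2), and 94.9% of all reproducible peaks were higher. A second reproducible summit lay 4.38 kb upstream of the start at 34560707, outside any gene, with 9.35 and 11 (mean 10.2 ± 1.18, SD, n = 2). Beside it, 3.38 kb upstream of the start, was a weak matched peak of 4.74 and 4.84 that did not pass IDR. SPDEF was the nearest protein-coding gene to all 4 matched summits in its window, and replicate 2 was the higher one in all 4. Replicate 1 was the higher one at 54.3% of all matched peaks and at 11 of the 18 in these windows. The SPDEF count was picked after the values were seen. At the fourth SPDEF summit, 13.7 kb upstream, the replicates' own summits were 1240 bp apart (folds 4.98 and 6.99). The peaks there overlapped, 34569243 to 34570252 in replicate 1 and 34569252 to 34570776 in replicate 2. Only the place of highest signal differed.

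GATA3, the zinc-finger factor that maintains luminal identity (chromosome 10, 8045333 to 8075198, plus strand), had its reproducible summit outside the gene. It lay 21.8 kb beyond the far end at 8096958, inside the non-coding gene LOC105376395, with folds of 10.3 and 9.67 (mean 9.97 ± 0.429, SD, n = 2). GATA3 was the nearest protein-coding gene, and the replicates' summits were 19 bp apart. At the most upstream of the 6 GATA3 starts, a peak was called in replicate 2 alone, with its summit 279 bp inside the gene and a fold of 6.04. Replicate 1 had no peak overlapping it.

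FOXA1 (chromosome 14, 37589552 to 37595249) was the listed gene with no summit of either replicate in its window, while 76.1% of all protein-coding genes had at least one. The nearest summit of replicate 1 was 204 kb away with a fold of 5.02, and the nearest of replicate 2 was 1167 kb away. The nearest reproducible summit was at that same distance, 1167 kb, with a mean fold of 10.5 ± 0.312 (SD, n = 2), and its nearest protein-coding gene was NKX2-1. A region without a called peak may still hold signal under the caller's threshold.

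XBP1, the factor of the secretory and unfolded protein response (chromosome 22, 28794560 to 28800569, minus strand), had no reproducible summit within 408 kb. In replicate 1 alone a peak was called 167 bp upstream of its outer start, with a fold of 4.90 and a −log10 q of 4.07, where q is the caller's p-value adjusted for multiple tests. That peak, from 28800518 to 28800861, covers the whole XBP1 promoter printed above. It was weak for its list, with 15.3% of replicate 1 peaks lower. The matched summits in the window, 40.6 and 44.7 kb beyond the gene, both lay inside HSCB, a co-chaperone of mitochondrial iron-sulfur cluster assembly, and had mean folds of 6.93 ± 0.423 and 5.41 ± 0.889 (SD, n = 2). Neither passed IDR.

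**Figure D3:**
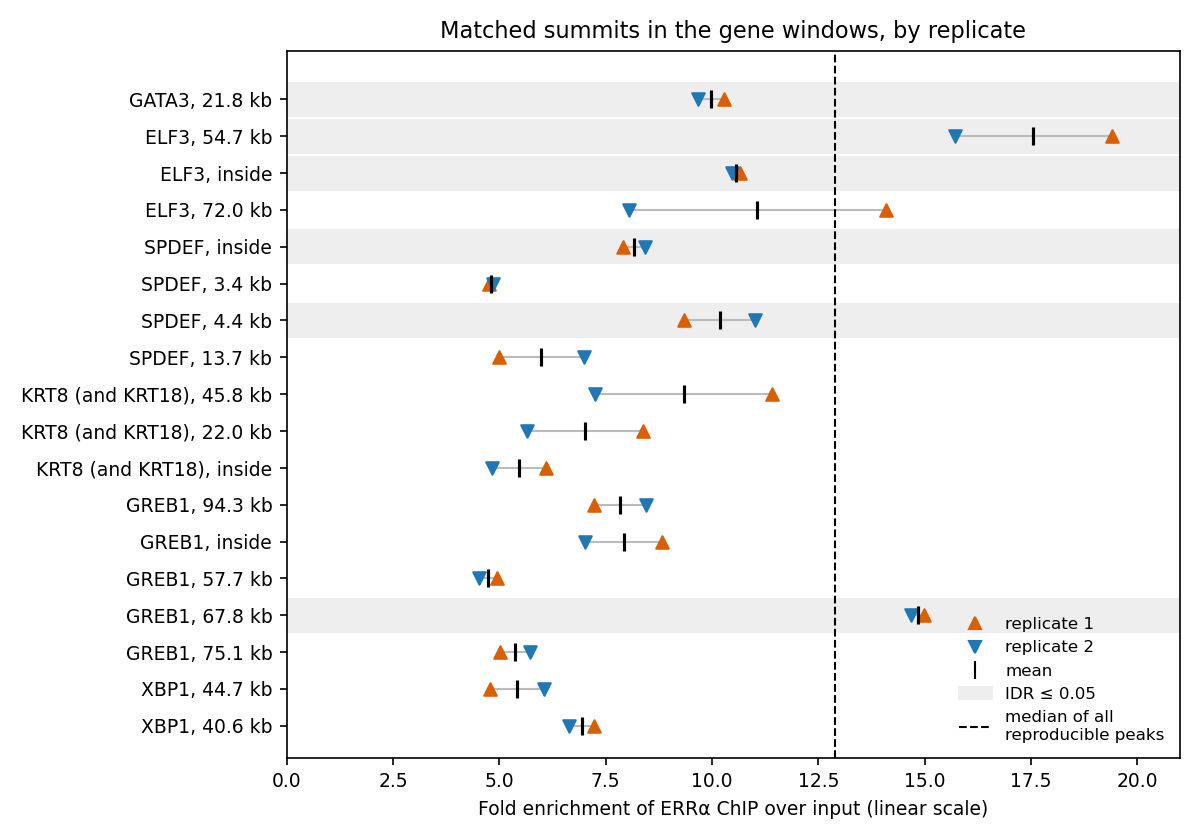
Fold enrichment of the 18 matched summits in both replicates. The x axis is the fold over input on a linear scale, each row is a summit with the gene whose window holds it and its distance from that gene (KRT8 for the summits it shares with KRT18), triangles are the replicates, black ticks their mean, grey bands mark summits that passed IDR 0.05, and the dashed line is the median of all reproducible peaks, 12.9. Most summits lie left of the line, and the widest gaps between replicates are at ELF3 and at the keratins.

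KRT8 and KRT18 encode the paired keratins of simple epithelium and lie side by side on chromosome 12. The RefSeq interval of KRT8, 52897191 to 52949860, reaches into that of KRT18, 52948855 to 52952906, and the start of KRT8 in the promoter table, 52926469, lies well inside it. A matched summit at 52926716 was 247 bp upstream of that start, in the promoter printed above, which made KRT8 the listed gene with a matched summit within 1 kb of a start, 1 of 7 against 9.04% of all genes with an entry. Its folds were 6.09 and 4.83 (mean 5.46 ± 0.887, SD, n = 2), and it did not pass IDR. The replicates' own summits there were 122 bp apart, and that of replicate 1, at 52926777, lay outside the printed promoter. The other matched summits of the locus lay below KRT8 at 22 and 45.8 kb, and the farther one was closer to KRT78, at 2.36 kb. They had 8.37 and 5.64, and 11.4 and 7.25, in replicates 1 and 2.

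Replicate 1 was the higher one at all 3 matched summits of the keratin locus, by 1.26 to 1.57 times. Over all matched peaks the median ratio of replicate 1 to replicate 2 was 1.02, and 24.1% had a ratio of 1.2 or more. A further 3 summits of the locus were called in replicate 1 alone and none in replicate 2 alone. Over the whole data 71.9% of replicate 1 peaks and 79.8% of replicate 2 peaks overlapped a peak of the other replicate. Of the 3 summits, the highest lay inside KRT18 at 52952290, 616 bp from its upper end, with a fold of 7.61. Of all peaks found in replicate 1 alone, 5.44% were higher. The others had folds of 6.47 and 4.95. The ratio limit and this count were chosen after the values were seen.

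The other 3 genes, GREB1, TFF1 and LTF, are grouped here as oestrogen-response genes, with XBP1 described among the transcription factors above. GREB1, a coactivator of the oestrogen receptor (chromosome 2, 11482888 to 11642788), had 5 matched summits in its window. The one inside the gene, at 11538381 and 55.5 kb from the lower end, had folds of 8.83 and 7.02 (mean 7.93 ± 1.28, SD, n = 2) and did not pass IDR, with a score of 469 where 540 was needed. The reproducible one, at 11710596, had 15 and 14.7 (mean 14.8 ± 0.223, SD, n = 2). It lay 67.8 kb from GREB1 and inside LPIN1, the gene of lipin 1, a phosphatidate phosphatase and lipid regulator, as did 2 weaker matched summits. Just outside the 100 kb limit, 104 kb from GREB1 and again nearest LPIN1, was a stronger reproducible summit of 38.3 ± 8.97 (SD, n = 2).

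TFF1 encodes a secreted trefoil peptide and is a standard readout of oestrogen action (chromosome 21, 42362282 to 42366535). Its window held 4 summits in replicate 2 and none in replicate 1. The closest, at 42366948, was 413 bp beyond the upper end of the gene and had a fold of 5.64 with a −log10 q of 5.19. The others lay toward lower coordinates, nearest TFF2 (5.24), TFF3 (5.64) and ABCG1 (4.19), and all 4 were in the weaker part of the replicate 2 list, where 4.21% to 25.0% of peaks were lower. A window with at least 4 summits of one replicate and none of the other was found for 24 of 20037 genes (0.12%), a limit set after these counts were seen. TFF1 and its neighbours TFF2 and TFF3 make up 3 of the 24, through the same peaks. The nearest reproducible summit was 656 kb away.

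LTF (chromosome 3, 46435645 to 46485234, minus strand) had 2 summits in its window, both in replicate 1 alone. One lay 14 kb upstream of the outermost of its 3 starts, inside RTP3, a chaperone of taste receptors, at 46499280. Its fold was 10.3 and its −log10 q 18.6, the same values that the GATA3 peak had in replicate 1. Of the 3955 peaks found in replicate 1 alone, 8 (0.202%) had a higher fold. Replicate 2 had no peak overlapping it, and its nearest summit to LTF was 168 kb from the gene. The other replicate 1 peak was 74.1 kb past the gene, 628 bp from CCR2, with a fold of 5.52. No peak of either replicate lay on the 3 LTF promoters.

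Agreement of the replicates in these windows was close to that of the whole data. Of the 26 replicate 1 peaks, 18 had an overlap of 1 bp or more with a replicate 2 peak (69.2%, exact Clopper-Pearson 95% interval 48.2 to 85.7), against 71.9% of all replicate 1 peaks. Of the 24 replicate 2 peaks, 18 overlapped a replicate 1 peak (75.0%, 53.3 to 90.2), against 79.8%. Peaks found in a single replicate were weaker, with a median fold of 5.42 for the 8 of replicate 1 and 5.64 for the 6 of replicate 2, against 8.14 and 7.14 for those that overlapped. The whole data had the same order, with medians of 5.33 and 5.26 for single-replicate peaks against 8.58 and 8.39 for those that overlapped. These intervals treat peaks as independent, which neighbouring peaks are not, and with 1 condition and 2 ChIP libraries no test between samples could be made. Both lists were called against the same inputs, whose part in the agreement was not tested. The inputs enter the values through the folds, and no input value of their own was used for any peak.

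Other genes of the same programmes were summarised from lists. Of 22 further luminal genes, such as ESR1, KRT19 and CDH1, 11 had a reproducible summit in the gene or within 100 kb (50%), and of 19 further oestrogen-response genes, such as CCND1 and RARA, 9 had one (47.4%). Of 20 basal and mesenchymal genes, such as VIM and ZEB1, 9 had one (45%). All 3 shares are near the 46.4% of protein-coding genes. Within 1 kb of a gene end, where 4.49% of all protein-coding genes had a reproducible summit, none was found for the 22 luminal or the 19 oestrogen-response genes. Of the 20 basal and mesenchymal genes 1 had one. With counts this small the 3 lists are not told apart from that share or from each other. The gene was FOSL1, an AP-1 subunit, with a mean fold of 21.8 ± 5.38 (SD, n = 2). The window of ESR1, the oestrogen receptor gene, named here after its values were seen, held 4 replicate 1 summits, 2 replicate 2 summits, 1 matched summit and no reproducible one.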

How the data were processed

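Peaks of 2 ERRα ChIP libraries of MDA-MB-231 cells, called against 2 inputs, were analysed. Sequencing depth was 29000000 reads for ERRα and 10000000 for input, as paired reads of 81 bp, per the labels (where the exponent is misprinted). No read counts per peak were used, so no interval covers depth. Nothing beyond separate cell culture samples is said of the replicates. The submitters' processing notes name, without their role, the build hg38, MACS2 2.2.6, Bowtie2 2.3.5, Trim Galore 0.6.5, deepTools, SAMtools and Picard, with no settings.

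The authors deposited, per peak, a fold enrichment (a ratio to the local input background), a −log10 p and −log10 q, and a score. In the deposited matched list the score is a scaled IDR, and 540 corresponds to 0.05. Replicate folds of a matched peak were those of the highest overlapping peak in each replicate's own list, which summed to the deposited value within 0.001 for 99.1% of peaks. The matched list's 8 columns that repeat each replicate's interval and fold were not used. Peaks on contigs other than chromosomes 1 to 22, X and Y (371 in replicate 1, 358 in replicate 2, 272 matched) were left out. Genes came from RefSeq GRCh38.p14, which here gives ends but no exons, so exons and introns were not told apart. Starts came from the promoter table. All 10 genes and the 61 list genes were found.

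The genes, lists and thresholds were chosen with earlier results of these data known. All 10 were named, with their strongest and nearest summits, and of each list those with a reproducible summit within 1 kb of an end. No test was made. Percentages of all protein-coding genes with the same call stand beside the counts. Overlap and distance code was tested on simulated data. Python 3.11.15, pandas 2.3.3, numpy 2.4.6, scipy 1.17.1 and matplotlib 3.10.9 were used. Alternatives were other windows, distances, IDR limits, overlap rules and single replicates.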

Additional observations from a re-analysis of the deposited data

How the results depend on the processing

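Of 53 alternative values, 32 stayed within 1.5 times of a count, inside the interval of a share or within the spread of the replicates, and 21 moved. With a 10 kb window there were 3 reproducible summits at 2 genes, and 6 matched summits. With a 50 kb window the median fold was 10.1. At an IDR of 0.01, 1 gene had a summit within 1 kb of an end, as with a distance of 500 bp, where 1 did. With gene starts alone the count was 0. With all matched peaks there were 18 summits at 7 genes, 9 of them nearest a listed gene, with a median fold of 7.88. With a single replicate's list in place of the matched one there were 24 to 26 summits at 8 genes (in each list), 4 genes with a summit near an end (in each list), 11 to 12 summits nearest a listed gene and a median fold of 6.34 to 7.23. These lists hold more and weaker peaks. The search for ERRα sites under the summits was not run, and the promoters were searched instead, with the 150 and 50 bp windows and the IDR alternative not run. No paired analysis was possible because the values come from no test and each ChIP library was called against both inputs. Peaks under the callers' thresholds, a lowest −log10 q of 1.35 in replicate 1 and 1.37 in replicate 2, cannot be seen, so an absent peak is not absent binding.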
